A study of Mus musculus with 4 samples.

Results

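The genes described here are 45 genes that mark endothelial cells, their arterial, venous and lymphatic subtypes, or their inflammatory activation. They were chosen by symbol, and all 90 probe sets annotated to 1 of them alone were taken from the deposited table, which holds 18194 named genes by the same annotation. Of the 45 genes, 33 are pan-endothelial, 3 arterial (Gja4, Gja5, Sox17), 3 venous (Nr2f2, Ackr1, Vwf), 2 lymphatic (Lyve1, Prox1) and 4 are activation genes (Sele, Selp, Icam1, Vcam1). Expression was measured on Affymetrix whole-genome mouse arrays in Sca-1 cells sorted with magnetic beads from hearts of mice aged 6 weeks on the FVB background, without culture. Cyc mice were double-transgenic for CyclinT1 and Gαq, both under the αMHC promoter that is active in cardiomyocytes, and had heart failure. Wt mice were healthy littermates. Each array held 1 pool of cells from a few mice of either sex, with 2 pools per genotype, and the replicate numbers 1 and 2 were taken as the independent experiments of the study.

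Endothelial cells line all vessels, are joined by VE-cadherin, claudin and PECAM contacts, and keep their identity through transcription factors of the ETS and SOXF families. Arteries, veins, capillaries and lymphatic vessels add their own sets of genes. On activation by cytokines, endothelial cells display selectins and the adhesion molecules ICAM-1 and VCAM-1, which capture leukocytes from the blood. Sca-1 is itself found on much of the endothelium of the mouse, so that a sort for Sca-1 can hold endothelial cells beside mesenchymal ones.

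The deposited values are normalized intensities on a linear scale. A probe set was tested when it reached an intensity of 50 on at least 2 of the 4 arrays, which held for 20680 of 45037. Here and below, intensities are given for replicate 1 and then replicate 2 of a genotype. Medians over the tested probe sets were 197.6 and 280.5 (Cyc) against 219.4 and 260.7 (Wt). Differences are on the log2 scale after 16 was added to each intensity, which understates those of dim genes. The number of arrays limits the precision, and the p-values measure only the spread between these pools. The study calls the cells undifferentiated progenitors, and endothelial genes were read in every pool. All 33 pan-endothelial genes were at 50 or more on all 4 arrays at their brightest probe set, with intensities from 200.8 to 10901. Fewer endothelial cells in a pool and less RNA per endothelial cell cannot be told apart in such pools. Genes of airway epithelium were highest in the Cyc pool of replicate 2 and next highest in the Wt pool of replicate 1. Their summed intensity over 5 tested genes was 374.7 and 17808 (Cyc) against 3156 and 167.5 (Wt).

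No endothelial member passed the thresholds of the study, a 2-fold change and an unadjusted p under 0.05, in either direction. This covers 80 tested probe sets of 43 members, and limma gave none of them an unadjusted p under 0.05, the smallest being 0.0769 for Ackr1. Of all tested probe sets 0.735% passed higher, 0.116% passed lower and 1.99% had an unadjusted p under 0.05. After adjustment over all probe sets every p was 1. Student's t-test on the same values gave 2 of the 80 member probe sets an unadjusted p under 0.05, compared with 644 of all 20680. Limma with a block for the experiment gave 5 of the 80, compared with 6.98% of all tested probe sets. These 5 belonged to Vwf, Gja4, Ackr1 and dimmer probe sets of Sox7 and Myct1, both lower. No member passed the thresholds in that fit either, where 0.924% of all probe sets passed higher and 0.227% lower. The adjusted p was under 0.05 for 0.00484% of all probe sets there and for none of the members. The log2 differences of member probe sets ran from -0.66 to 0.69. When the Cyc pool of replicate 1 was left out, Vwf and Selp passed as higher, with log2 differences of 1.04 and 1.10. Nr2f2 and Clec14a had 0.91 and 0.58 at their brightest probe sets and passed only at dimmer ones. Those gave 1.05 to 1.12 for Nr2f2 and 1.06 for Clec14a. In that fit the lone Cyc pool is assumed to vary like the Wt pools. Without any other single pool no member passed. At the brightest probe set of each tested member, the Cyc pools were both above the Wt pools in 10 of 43 members and both below in 4, compared with 15.1% and 8.23% of all tested probe sets. Comparing the pools of the same experiment, 14 members were higher in Cyc cells in both experiments, 13 lower in both and 16 of opposite sign, where 26.1% of all tested probe sets were higher and 29.1% lower in both. Of 21 members with several tested probe sets, 16 had the same sign at all of them.

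The 33 pan-endothelial genes had a median log2 difference of -0.03, next to -0.02 over all tested probe sets. In experiment 1 their median was -0.10 and in experiment 2 it was -0.02, where all tested probe sets had -0.10 and 0.06. For 22 of the 33 genes the 95% confidence interval of limma lay wholly inside a 2-fold change, and the median distance from the estimate to either limit was 0.64. For the remaining genes the interval reached past a 2-fold difference in at least 1 direction.

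**Figure D1:**
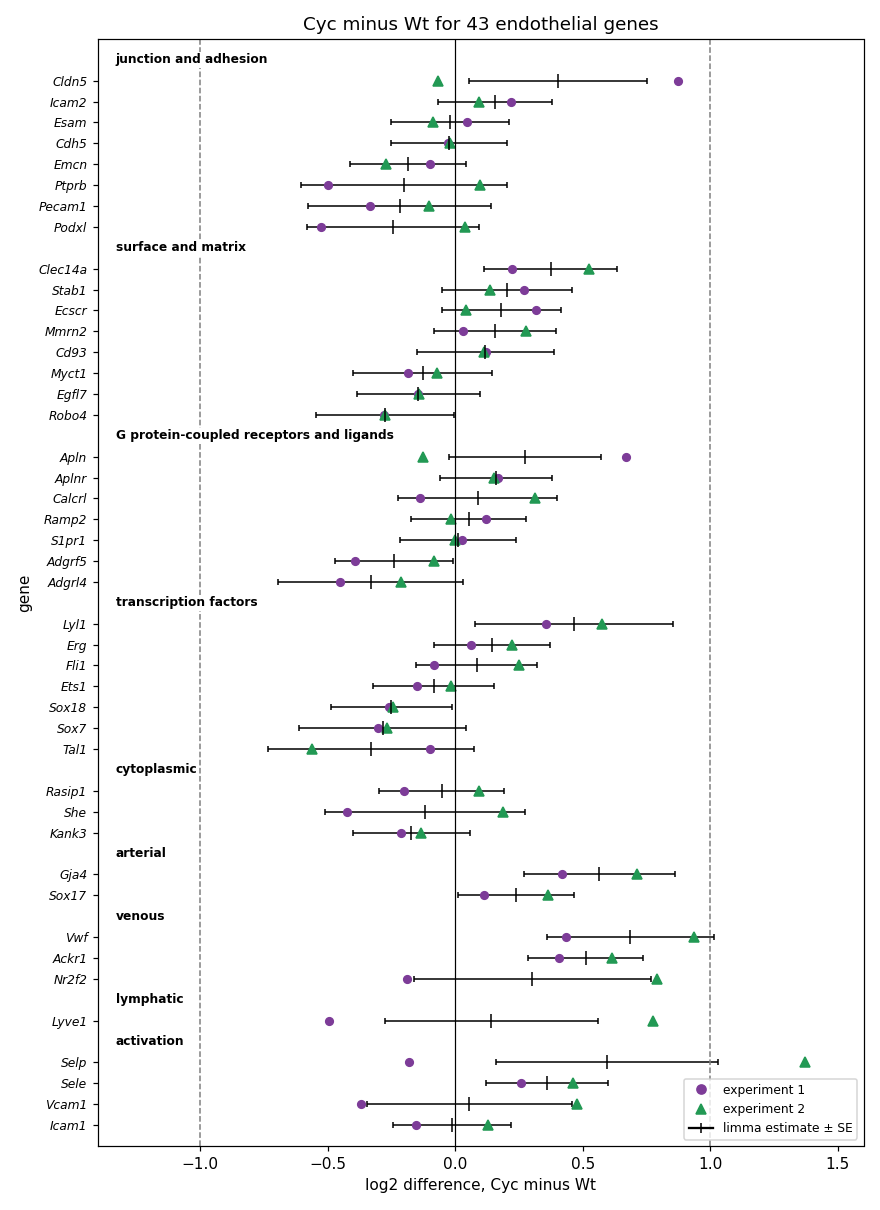
Log2 difference between Cyc and Wt cells (horizontal axis) for the 43 tested members, each at its brightest probe set and grouped by role, with experiment 1 as circles, experiment 2 as triangles, and the limma estimate with its standard error in black; dashed lines mark a 2-fold change. Pan-endothelial estimates lie between -0.33 and 0.47. Gja4, Sox17, Vwf and Ackr1 lie to the right of 0 in both experiments, as do Sele and 9 of the 33 pan-endothelial genes.

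Among the 8 genes of junctions and adhesion, Cdh5, which encodes VE-cadherin, was read at 8280 and 9015 (Cyc) against 8439 and 9157 (Wt). The pools of an experiment were nearly equal, and the log2 difference was -0.03 with an interval from -0.62 to 0.57. Pecam1, the platelet and endothelial adhesion molecule, was read at 1820 and 3008 (Cyc) against 2299 and 3228 (Wt). Its Cyc pool was the lower one in each experiment, but the pools of the 2 genotypes overlapped (log2 difference -0.22, standard error 0.36). Emcn, a sialomucin of veins and capillaries, had intensities of 5817 and 5108 (Cyc) against 6235 and 6166 (Wt). Both Cyc pools lay below both Wt pools, a log2 difference of -0.19 (standard error 0.23). Icam2, a constitutive ligand of leukocyte integrins, showed the opposite order, at 5215 and 5214 (Cyc) against 4478 and 4881 (Wt) (log2 difference 0.16, standard error 0.22). Cldn5, the tight junction protein of endothelium, differed between the experiments. It was read at 3856 in the Cyc and 2098 in the Wt pool of experiment 1, and at 3549 and 3722 in those of experiment 2. Its estimate of 0.40 (standard error 0.35) rested on the low Wt pool of replicate 1 and was -0.01 without it. Esam, Podxl and Ptprb had estimates from -0.24 to -0.02 at their brightest probe sets.

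Of the 8 surface and matrix genes, 5 were higher and 3 lower in the Cyc pool of both experiments at the brightest probe set. Dimmer probe sets of Cd93 and Mmrn2 gave opposite signs, such as -0.05 and 0.34 at one of Cd93. Clec14a, a lectin-like receptor of sprouting endothelium, was read at 1931 and 2578 (Cyc) against 1653 and 1787 (Wt). Both Cyc pools were above both Wt pools (log2 difference 0.37, standard error 0.26), and its dimmer probe set gave 0.52 with overlapping pools. Ecscr, a surface regulator of endothelial chemotaxis, was at 3618 and 3530 (Cyc) against 2900 and 3424 (Wt) (0.18, standard error 0.23). Cd93, Mmrn2, the matrix ligand of both Cd93 and Clec14a, and the scavenger receptor Stab1 had estimates of 0.12, 0.15 and 0.20. Robo4, a guidance receptor that stabilizes vessels, had nearly the same log2 difference in both experiments, -0.28 and -0.27, with Cyc intensities of 1748 and 2224 and Wt intensities of 2125 and 2692. The Cyc pool of replicate 2 was above the Wt pool of replicate 1, so the groups overlapped. Egfl7, a secreted protein of the vessel wall, and Myct1 were lower in Cyc cells of both experiments at each of their 4 probe sets, with estimates from -0.55 to -0.14 and from -0.50 to -0.13.

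The 7 G protein-coupled receptors, partners and ligands gave 1 gene higher in both experiments, 2 lower and 4 of opposite sign. Aplnr, the apelin receptor, was read at 10901 and 10808 (Cyc) against 9710 and 9729 (Wt). The pools of a genotype were almost equal, and the genotypes differed by 0.16 (standard error 0.22), while a second, dimmer probe set gave -0.10. Its ligand gene Apln was at 905.2 in the Cyc and 562.7 in the Wt pool of experiment 1, but at 605.7 and 662.8 in those of experiment 2. Adgrf5, an adhesion receptor, was at 7045 and 7930 (Cyc) against 9261 and 8413 (Wt) (-0.24, standard error 0.23). Adgrl4, a related receptor, had estimates of -0.33 and -0.36 at its probe sets. S1pr1, the sphingosine-1-phosphate receptor, Ramp2 and Calcrl, which together form the adrenomedullin receptor, differed by 0.01, 0.05 and 0.09.

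Of the 7 transcription factors of the endothelium, 2 were higher in both experiments, 4 lower and 1 of opposite sign. Erg, the ETS factor that maintains endothelial identity, was at 1747 and 1717 (Cyc) against 1671 and 1468 (Wt). Both Cyc pools were above both Wt pools, with a log2 difference of 0.14 (standard error 0.23). Fli1, a related ETS factor that leukocytes and megakaryocytes use as well, was at 1907 and 2298 (Cyc) against 2020 and 1928 (Wt), and its pools overlapped (0.08, standard error 0.24). A dimmer probe set of Fli1 gave -0.30. Ets1 had an estimate of -0.08. The SOXF genes did not share a sign. Sox18 was lower in both Cyc pools, at 3283 and 3764 against 3928 and 4465 in Wt cells (-0.25, standard error 0.24), and Sox7 had -0.28, whereas the arterial member Sox17 had 0.24. Tal1 and Lyl1, paralogous factors of blood and endothelium, had estimates of -0.33 and 0.47, each of the same sign in both experiments, with overlapping pools. Of the cytoplasmic genes, Kank3, at 1979 and 1843 (Cyc) against 2293 and 2022 (Wt), had both Cyc pools below both Wt pools (-0.17, standard error 0.23). Rasip1, an effector of Ras proteins in vessel formation, and She had -0.05 and -0.12.

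The arterial and venous genes that could be tested all had estimates above 0, and Vwf had the highest of all members, although none passed the thresholds. Vwf, the clotting glycoprotein stored mainly in endothelium of veins and larger vessels, was read at 2221 and 3647 (Cyc) against 1638 and 1898 (Wt). Both Cyc pools were above both Wt pools, 1.61-fold over the pools (log2 difference 0.69, standard error 0.33, unadjusted limma p of 0.0942), with 0.44 in experiment 1 and 0.94 in experiment 2. Gja4, a gap junction protein of arterial endothelium, was at 1043 and 1533 (Cyc) against 776.1 and 930.5 (Wt). The groups did not overlap (0.56, standard error 0.30, with an interval from -0.21 to 1.34). Without the Cyc pool of replicate 2 the log2 differences of Vwf and Gja4 were 0.33 and 0.29, and without that of replicate 1 they were 1.04 and 0.84. Ackr1, the chemokine-binding receptor of venules, was at 203.7 and 226.1 (Cyc) against 149.8 and 142.1 (Wt) (0.51, standard error 0.23, with an interval from -0.08 to 1.10), again without overlap. Sox17, a SOXF factor of arteries, was at 3723 and 4137 (Cyc) against 3439 and 3216 (Wt) (0.24, standard error 0.23). Nr2f2, the nuclear receptor that specifies veins, did not follow them. It was read at 280.2 in the Cyc and 321.4 in the Wt pool of experiment 1 and at 677.1 and 384.8 in those of experiment 2, and all of its 4 tested probe sets were lower in the Cyc pool of experiment 1 and higher in that of experiment 2. Gja5, another arterial gap junction gene, lay at 13.2 or less in every pool and could not be tested. With the experiment as a block, Vwf, Gja4 and Ackr1 had an unadjusted p of 0.0223, 0.0328 and 0.0424. These did not pass the thresholds, as each difference was under 2-fold, the adjusted p was 0.666 or more, and 6.98% of all tested probe sets had an unadjusted p under 0.05 in that fit.

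**Figure D2:**
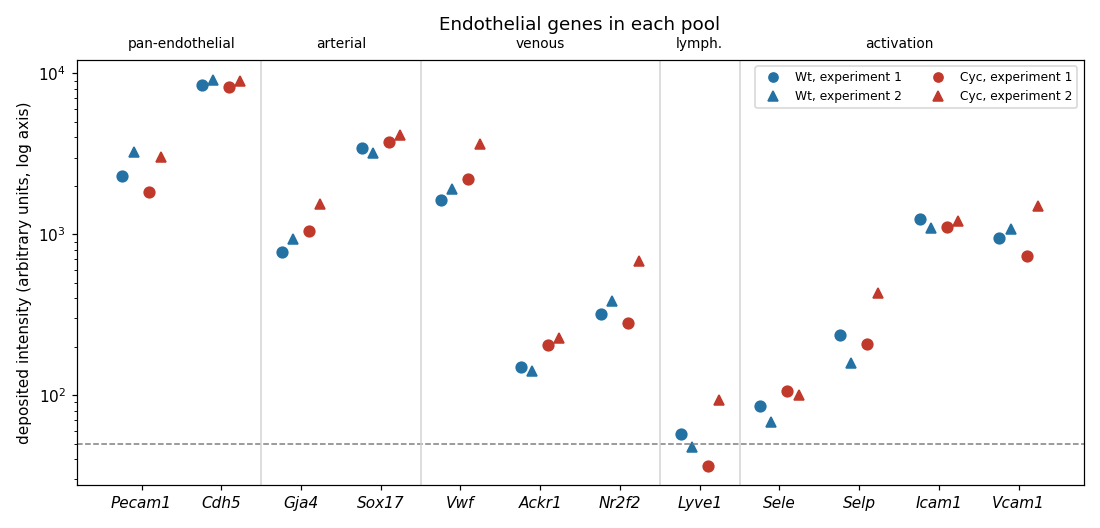
Deposited intensity (log axis) of 12 members in each of the 4 pools, with Wt in blue, Cyc in red, experiment 1 as circles and experiment 2 as triangles; the dashed line marks an intensity of 50. The 2 red points lie above the 2 blue ones for Gja4, Sox17, Vwf, Ackr1 and Sele, while for Nr2f2, Lyve1, Selp and Vcam1 only the red triangle does.

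Upstream sequences are shown for members that lay on opposite sides of the comparison. Among members with a single window at hand, Gja4 and Ackr1 had the highest estimates with both Cyc pools above the Wt pools. Emcn and Kank3 had the lowest with both below. Each sequence covers the 250 bases before the gene's start on GRCm38.p6. Capitals mark AGGAAG or its reverse complement CTTCCT, a sequence that ETS factors such as Erg, Fli1 and Ets1 can bind. Shorter or variant forms of an ETS site were not searched for.
Gja4, chr4:127314040-127314289, minus strand: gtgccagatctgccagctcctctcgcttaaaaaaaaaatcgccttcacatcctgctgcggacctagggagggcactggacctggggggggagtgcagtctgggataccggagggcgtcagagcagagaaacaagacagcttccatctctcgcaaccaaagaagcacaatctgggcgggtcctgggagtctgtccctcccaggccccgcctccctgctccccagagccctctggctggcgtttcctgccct
Ackr1, chr1:173333504-173333753, minus strand: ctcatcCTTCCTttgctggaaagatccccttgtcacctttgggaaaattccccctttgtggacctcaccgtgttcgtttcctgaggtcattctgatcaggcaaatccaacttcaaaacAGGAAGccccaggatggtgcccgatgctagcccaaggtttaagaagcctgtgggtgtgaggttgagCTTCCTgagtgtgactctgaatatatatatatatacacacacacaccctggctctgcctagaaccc
Emcn, chr3:137340828-137341077, plus strand: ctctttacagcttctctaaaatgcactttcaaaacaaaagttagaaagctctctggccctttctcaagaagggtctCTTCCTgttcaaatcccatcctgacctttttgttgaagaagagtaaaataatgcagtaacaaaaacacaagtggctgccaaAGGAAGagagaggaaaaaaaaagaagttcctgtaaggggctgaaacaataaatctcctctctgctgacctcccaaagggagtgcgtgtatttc
Kank3, chr17:33810273-33810522, plus strand: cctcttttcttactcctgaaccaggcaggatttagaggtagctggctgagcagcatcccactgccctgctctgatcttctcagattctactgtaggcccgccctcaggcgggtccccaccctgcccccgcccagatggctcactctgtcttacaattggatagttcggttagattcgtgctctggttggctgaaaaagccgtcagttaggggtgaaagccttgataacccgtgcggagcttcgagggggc
This exact sequence was found at 3 places before Ackr1 and at 2 before Emcn, and not in these windows before Gja4 and Kank3. A window was at hand for 25 of the 45 members, of which 5 have several. Of these 32 windows 16 held the exact sequence, compared with 29.5% of all 32851 windows of this length. A match of letters is a description and no evidence of binding.

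The lymphatic genes were dim in all pools. Lyve1, the hyaluronan receptor of lymphatic vessels and of some macrophages, was read at 36.2 and 92.8 (Cyc) against 57.5 and 47.5 (Wt). The highest and the lowest pool were both Cyc, and the log2 difference of 0.14 had an interval from -0.95 to 1.23. Prox1, the master regulator of lymphatic identity, lay at 14.8 or less at its 3 probe sets in every pool and was not tested. The summed intensity of macrophage genes was also highest in the Cyc pool of replicate 2. Of 12 markers, 4 could be tested (Adgre1, Cd14, Csf1r and Lyz2), and their summed intensity was 381.6 and 990.5 (Cyc) against 440.3 and 174.2 (Wt). Among the markers too dim to test, C1qb, a complement gene of macrophages, was at 45.7 and 95.8 (Cyc) against 10.7 and 25.4 (Wt) at its brightest probe set. Cd68 was at 23.6 and 63.4 (Cyc) against 17.9 and 19.8 (Wt), C1qa reached 63.6 in the Cyc pool of replicate 2 and was below 0 in the other pools, and Cd163 lay at 3.0 or less in all pools. The part of such cells in the values of Lyve1 and Stab1 was not tested.

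Of the 4 activation genes, 1 was higher in Cyc cells in both experiments and 3 had opposite signs at the brightest probe set. Sele, an endothelial selectin made after cytokine exposure, was read at 105.6 and 99.9 (Cyc) against 85.7 and 68.2 (Wt). Both Cyc pools were above both Wt pools, close to the dim end (log2 difference 0.36, standard error 0.24). Selp, the selectin stored with von Willebrand factor, was at 206.5 and 432.2 (Cyc) against 236.3 and 157.2 (Wt). Its log2 difference was -0.18 in experiment 1 and 1.37 in experiment 2 (0.60 over both, standard error 0.43), and 0.09 over both without the Cyc pool of replicate 2. Its dimmer probe sets were higher in both experiments, with 0.07 and 0.79 at one and 0.13 and 1.23 at the other, and their Cyc pools lay above the Wt pools. Vcam1, an adhesion molecule for lymphocytes and monocytes that stromal cells express too, was at 734.8 and 1503 (Cyc) against 953.0 and 1074 (Wt), with -0.37 and 0.48 in the experiments. Icam1, the ligand of leukocyte integrins, was nearly level, at 1113 and 1205 (Cyc) against 1239 and 1102 (Wt) (-0.01, with an interval from -0.62 to 0.59). Of 19 further genes of endothelial activation by cytokines, none passed. Among them Ccl2, a chemokine for monocytes, had an estimate of -0.67, and Il6, which encodes a cytokine, one of 1.23. With the experiment as a block Il6 alone of these passed as higher. Platelets also hold von Willebrand factor and P-selectin. Of 10 platelet markers, 3 could be tested, and their summed intensity was 480.0 and 272.7 (Cyc) against 481.0 and 409.2 (Wt). Of those too dim to test, Gp1bb was at 46.1 and 48.9 (Cyc) against 24.7 and 36.5 (Wt) at its brighter probe set, and Gp9 at 41.3 and 39.5 (Cyc) against 19.3 and 39.7 (Wt). The part of platelets in the values of Vwf and Selp was not tested.

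Relative to the median of the pan-endothelial genes in the same array, the arterial members were higher in Cyc cells by 0.20 in experiment 1 and 0.58 in experiment 2. For the venous members these medians were 0.34 and 0.84. The activation members had -0.23 and 0.52 and the single lymphatic gene -0.56 and 0.82, so these lists had opposite signs in the experiments. With 2 tested arterial and 3 venous genes these are descriptions and were not tested.

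Other endothelial genes, from lists chosen with earlier results of these arrays known, showed where genes outside the members passed. Of 20 further pan-endothelial genes, 1 passed as higher, none as lower, and 4 had an estimate above 0, with a median of -0.14. The gene was Plvap, which forms the diaphragms of fenestrae and caveolae, at 724.2 and 1070 (Cyc) against 329.4 and 380.8 (Wt) (log2 difference 1.28, standard error 0.29). It missed the thresholds without the Cyc pool of replicate 2, with a log2 difference of 0.9994, and without the Wt pool of replicate 1, with an unadjusted limma p of 0.0601. In the endocardial list Plvap and Cytl1, a secreted protein, passed among 4 tested genes. Cytl1 was at 1667 and 1981 (Cyc) against 833.8 and 678.0 (Wt) (1.26, standard error 0.25), and it missed the threshold without the Wt pool of replicate 2, with an unadjusted limma p of 0.0561. Of 10 tip cell genes Kcne3, a potassium channel subunit, passed at 1.32 (standard error 0.39), but not without the Cyc pool of replicate 2 (0.83) or without either Wt pool (1.28 and 1.36), where p missed the threshold. None of 11 capillary genes passed. In 9 of them the Cyc pool was lower in both experiments, compared with 29.1% of all tested probe sets. In 7 both Cyc pools were below both Wt pools, compared with 8.23%, and the median was -0.28. Car4, a carbonic anhydrase on the capillary surface, was at 1739 and 1256 (Cyc) against 2353 and 2563 (Wt) (-0.73, standard error 0.27). Aqp7, a channel for glycerol, was at 1369 and 1109 (Cyc) against 2031 and 1924 (Wt) (-0.67, standard error 0.24). Both differences were under 2-fold.

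**Figure D3:**
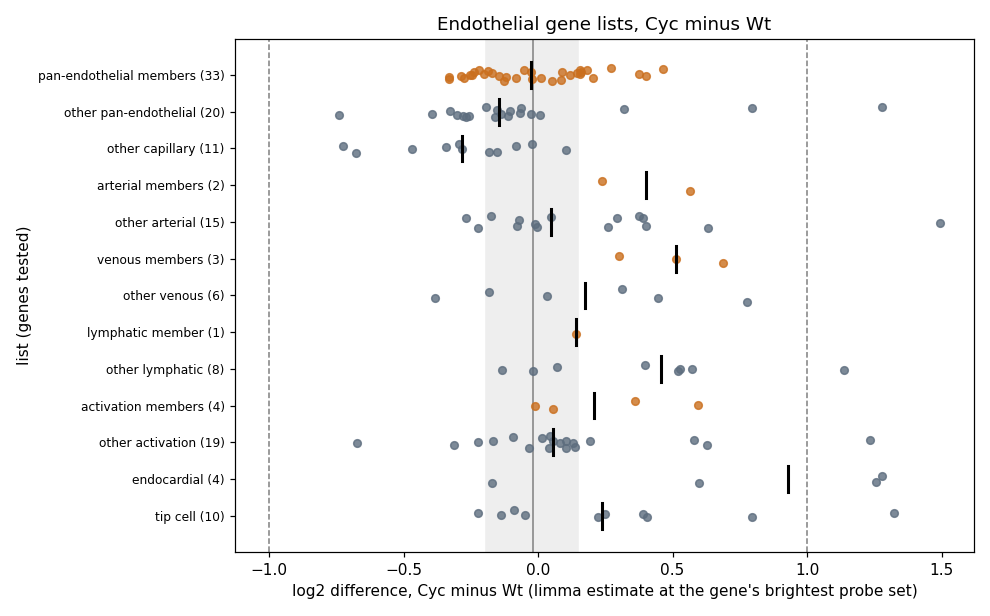
Log2 difference between Cyc and Wt cells (limma estimate at the brightest probe set) of each gene of 13 endothelial lists, members in orange and other genes in grey, with a black bar at each median; the grey band holds the middle part of all tested probe sets from -0.20 to 0.15 and dashed lines mark a 2-fold change. The pan-endothelial members spread around 0, the capillary list has its median at -0.28, and Plvap, Cytl1, Eln, Fgl2, Kcne3 and Il6 lie beyond 1, of which Il6 did not pass the test.

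Of 15 further arterial genes 1 passed as higher, Eln, the gene of elastin, at 1574 and 1172 (Cyc) against 532.5 and 418.3 (Wt) (log2 difference 1.49, standard error 0.28), and it passed without any single pool. Smooth muscle cells and fibroblasts make elastin as well. Over the 15 genes, 8 estimates were above 0, with a median of 0.05. Some Notch pathway genes of this list, Hey1, Dll4 and Notch1, had estimates from -0.27 to -0.08. Others of that pathway in the list, Hey2, Jag1 and Jag2, are not described here. Of 6 tested venous genes Bgn, a matrix proteoglycan that is abundant in fibroblasts, passed at 2 of its 3 probe sets but not at the brightest, and the venous receptor Ephb4 had -0.38. Of 8 tested lymphatic genes Fgl2, a prothrombinase-like protein that leukocytes also express, passed at 1.14 (standard error 0.37). It did not pass without the Cyc pool of replicate 2, where it was 0.70, nor without the Wt pool of replicate 1 or 2 (1.25 and 1.02). Flt4, the receptor of lymphatic growth, had -0.02. Over the 8 lymphatic genes, 6 estimates were above 0, with a median of 0.46. In 3 of them both Cyc pools were above both Wt pools, compared with 15.1% of all tested probe sets, and 5 had opposite signs in the experiments.

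Mural cells surround the vessels. Of 10 tested markers of pericytes and smooth muscle, all were higher in the Cyc pool of both experiments and 2, Abcc9 and Kcnj8, channel genes of pericytes, passed as higher. For this and the next lists, 26.1% of all tested probe sets were higher in both experiments and 0.735% passed as higher. Their summed intensity was 14295 and 26980 (Cyc) against 11673 and 16462 (Wt). Pan-leukocyte genes were higher in Cyc cells of both experiments in 6 of 8, with Cd52 and Itgb2 past the thresholds, and sums of 854.2 and 1726 (Cyc) against 589.7 and 815.5 (Wt). Of 10 fibroblast genes, 3 passed as higher and none as lower. In 5 the Cyc pools were both above the Wt pools at the brightest probe set, compared with 15.1% of all tested probe sets. In both experiments 5 were higher and 1 was lower in Cyc cells, and 4 had opposite signs. Their median was 0.03 in experiment 1 and 0.75 in experiment 2. The fibroblast genes that passed were Postn, a matrix protein of activated fibroblasts (1.90, standard error 0.33), the collagen gene Col1a1 (1.16, standard error 0.40) and, at a dimmer probe set, Col1a2 (1.34, standard error 0.36). Another Col1a1 probe set, almost as bright, did not pass. It gave 0.53 with overlapping pools, and -0.29 and 1.35 in the experiments. The sums of the fibroblast genes were 44396 and 46187 (Cyc) against 44245 and 27867 (Wt). The part of these cells, and of airway cells, in the values of Vwf, Gja4, Ackr1, Selp, Vcam1, Nr2f2 and Lyve1 was not tested.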

How the data were processed

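Gene expression was measured with Affymetrix whole-genome mouse arrays on RNA from 4 pools of freshly isolated Sca-1 cells, 2 Cyc and 2 Wt. The deposited intensity values on a linear scale were normalized by the authors in Resolver. The background correction and the summary of probes are not given in the sources used here, and values below 0 occur. Control probe sets (64) were left out. Values below 0 were set to 0, 16 was added and log2 taken, with no further normalization. Probe sets that reached 50 on 2 arrays or more (20680) were fitted with limma 3.58.1 in R 4.3.3 (2 residual and 2.68 prior degrees of freedom) with Benjamini-Hochberg adjustment. The calls use the thresholds of the study, a 2-fold change and an unadjusted p under 0.05, without the error model of Resolver. Tests were two-sided. Each gene stands at the probe set with the highest mean intensity over the 4 arrays unless another is named. Annotation gave 1 symbol for 34945 probe sets, several for 932 and none for 9160, and 2 probe sets shared with another gene were not used. Replicate numbers were taken as the experiments of the study because the methods speak of independent experiments and the titles number the arrays. The labels do not say so outright. The poly-A controls had medians of 250.1 (Cyc) and 213.9 (Wt) in replicate 1, but -1.14 and 0.57 in replicate 2. These controls reflect the processing of the arrays and do not show which cells were isolated together. Deviations of same-numbered arrays correlated at 0.45. The procedure was tested on simulated data. The members and lists were chosen with earlier results of these data known. Named are members past the thresholds, subtype and activation members, Pecam1, Cdh5, Erg, Fli1, Emcn and Cldn5, the 4 largest differences in each direction without overlap among pan-endothelial members, and genes of other lists past the thresholds. Other named genes were chosen after their values were seen. The alternatives were other pseudocounts, filters and normalizations, the block, an intensity trend, Student's t-test, the mean over probe sets, and leaving out each array.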

Additional observations from a re-analysis of the deposited data

How the results depend on the processing

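No member passed the thresholds in any setting other than the fit without the Cyc pool of replicate 1, so the number of members called higher ran from 0 to 4 when single pools were left out, and none was called lower. The fits without a pool have no block and set 1 experiment against both. Without single pools the count of all probe sets called higher ran from 117 (without Cyc replicate 2) to 581 (without Cyc replicate 1), that called lower from 29 (without Wt replicate 1) to 1050 (without Cyc replicate 2), and that with an unadjusted p under 0.05 from 158 to 1710, against 152, 24 and 412 with all pools. The count called higher was 93 with a pseudocount of 50 and 47 with Student's t-test. The count called lower was 46 with a pseudocount of 1, 37 without a filter and 7 with Student's t-test. It was 47 with the replicate block and 49 with the block and quantile normalization. An unadjusted p under 0.05 was found for 2278 probe sets without a filter, 671 with quantile normalization and 644 with Student's t-test. It was found for 1443 with the replicate block and 1997 with the block and quantile normalization. An adjusted p under 0.05 was found for 1 probe set with the block, with and without quantile normalization, and it was no member. Without single pools the pan-endothelial median ran from -0.0918 to 0.11, the arterial one from 0.23 to 0.58, the venous one from 0.33 to 0.91 and the activation one from 0.0103 to 0.44, each lowest without Cyc replicate 2 and highest without Cyc replicate 1. The log2 difference of Icam1 was 0.0098 when arrays were scaled to the same median. Signs also turned without single pools for Icam1 (-0.10 to 0.0711), Vcam1 (-0.45 to 0.56), Nr2f2 (-0.31 to 0.91), Lyve1 (-0.39 to 0.67), Pecam1 (-0.58 to 0.14), Cdh5 (-0.0862 to 0.0362), Fli1 (-0.0495 to 0.22) and Cldn5 (-0.0087 to 0.81). The causes were not tested. Medians relative to the pan-endothelial genes kept their sign with quantile normalization and other pseudocounts. The replicate block changed no member's call. Kcne3 and Fgl2 did not pass without a filter or with Student's t-test. In fits without a pool, the lone pool is assumed to vary like the other genotype.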
